A study of Homo sapiens with 8 samples.

Results

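The MHC class I antigen presentation genes examined here are 9 genes that supply and load the peptides shown on the cell surface: HLA-B, HLA-C, B2M, TAP1, TAPBP, ERAP1, ERAP2, PSMB8 and PSMB9. They were taken by symbol from the 60234 genes of the deposited table. For the 6 members whose symbol stood on several Ensembl identifiers, the identifier with the highest mean was kept, and the other identifiers of those symbols were listed at 0 in every library. The list was chosen by expression values of the comparison described here, in which ERAP2 was known to be among the largest rises, so the members' differences between the groups are given as a description without p-values. The cells were Rh41, an established line of alveolar rhabdomyosarcoma positive for PAX3-FOXO1, and 8 libraries were made from them. Control cells (CTR) gave 4 of the libraries, and cells with a knockdown of G9a gave the other 4, called siG9a on the samples and shG9a in the title of the series. Neither the time after knockdown nor the control reagent is given. The replicates are named biological, but whether they were separate cultures is not said, so p-values measure only the spread between these samples.

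Class I molecules carry peptides of the cell's own proteins to the surface, where cytotoxic T cells inspect them. The proteasome cuts proteins into peptides, and the interferon-induced subunits encoded by PSMB8 and PSMB9 replace constitutive ones in the immunoproteasome. TAP1 and TAP2 form the transporter that moves peptides into the endoplasmic reticulum, where ERAP1 and ERAP2 trim them and TAPBP (tapasin) helps to load them onto a heavy chain (such as HLA-B or HLA-C) paired with B2M (β2-microglobulin). Low class I expression has been described in rhabdomyosarcoma, and interferon, acting through IRF1 and the coactivator NLRC5 among others, raises most genes of the pathway. G9a, encoded by EHMT2, is a methyltransferase of histone H3 lysine 9 that is best known for gene repression.

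Promoter sequences of all 9 members were found in the RefSeq table (GRCh38.p14), as 13 windows of 300 bases that run from 250 before to 50 after a transcript start. Since interferon acts on these genes through the interferon-stimulated response element (ISRE), its core, a pair of GAAA tetramers with any 2 bases between them, was searched on both strands. It was present in 6 of the 13 windows, 1 each for B2M, TAP1, TAPBP, ERAP1, ERAP2 and PSMB8, and in 3.57% of all 35116 windows of the table. Counted by gene, 6 of 9 members and 4.38% of the 27305 genes in the table had such a window. HLA-B, HLA-C and PSMB9 had no match in their windows. Only these exact letters were searched, so a variant of the element, or one outside the windows, would be missed. The HLA-B window held a κB match of 11 bases (searched on both strands), which was found in 0.0313% of all windows and in no other member. CCAAT, searched on both strands as well, was found in 6 member windows and in 34.6% of all windows, TTCNNNGAA, the letters of the interferon-γ activated site, in 2 and 7.66%, and TGACGTCA, the cyclic AMP response element, in 0 and 1.85%. These are letter matches and not measured binding sites.

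The windows of 4 genes that illustrate the ISRE are shown 5′ to 3′ on the strand of the gene, with the ISRE letters in capitals, and that of HLA-B with the κB letters in capitals. Those of ERAP2 (chr5:96876250-96876549, plus strand), TAPBP (chr6:33314029-33314328, minus strand) and TAP1 (chr6:32853655-32853954, minus strand) show the element at different distances from the start and on either strand. Those of B2M (chr15:44711267-44711566, plus strand) and HLA-B (chr6:31357130-31357429, minus strand) are those of the most abundant member, which has the element, and of a heavy chain with no ISRE match. The first matched base stood at position -30 from the start in ERAP2, at -20 and -14 in TAPBP, at -134 and -128 in TAP1 and at -144 and -138 in B2M, the paired matches overlapping each other and those of TAP1 lying on the opposite strand. None of the ISRE matches overlapped a match of the interferon-γ activated site or of κB. The κB match of HLA-B began at -177.
ERAP2: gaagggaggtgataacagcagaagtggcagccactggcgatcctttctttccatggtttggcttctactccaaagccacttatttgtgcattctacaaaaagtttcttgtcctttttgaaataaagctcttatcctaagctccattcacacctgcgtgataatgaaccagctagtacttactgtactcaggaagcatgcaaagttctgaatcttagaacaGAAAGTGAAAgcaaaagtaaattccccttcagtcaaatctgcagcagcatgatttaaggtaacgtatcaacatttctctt
TAPBP: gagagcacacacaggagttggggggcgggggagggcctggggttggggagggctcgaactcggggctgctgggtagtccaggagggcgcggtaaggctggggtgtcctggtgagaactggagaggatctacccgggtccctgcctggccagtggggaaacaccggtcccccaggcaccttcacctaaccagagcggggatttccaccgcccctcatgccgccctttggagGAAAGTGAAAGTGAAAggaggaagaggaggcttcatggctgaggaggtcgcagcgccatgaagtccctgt
TAP1: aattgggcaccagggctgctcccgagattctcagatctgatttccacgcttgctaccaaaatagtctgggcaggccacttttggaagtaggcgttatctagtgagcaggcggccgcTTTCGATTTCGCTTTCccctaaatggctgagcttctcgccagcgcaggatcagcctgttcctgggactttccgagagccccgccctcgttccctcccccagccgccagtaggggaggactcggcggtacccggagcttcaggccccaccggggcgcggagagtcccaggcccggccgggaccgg
B2M: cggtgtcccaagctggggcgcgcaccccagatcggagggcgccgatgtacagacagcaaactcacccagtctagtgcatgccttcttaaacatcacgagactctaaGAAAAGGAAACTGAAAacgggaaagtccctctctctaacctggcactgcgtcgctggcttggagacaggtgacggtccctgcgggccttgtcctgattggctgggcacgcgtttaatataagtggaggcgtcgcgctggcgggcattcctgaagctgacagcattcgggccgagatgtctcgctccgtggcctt
HLA-B: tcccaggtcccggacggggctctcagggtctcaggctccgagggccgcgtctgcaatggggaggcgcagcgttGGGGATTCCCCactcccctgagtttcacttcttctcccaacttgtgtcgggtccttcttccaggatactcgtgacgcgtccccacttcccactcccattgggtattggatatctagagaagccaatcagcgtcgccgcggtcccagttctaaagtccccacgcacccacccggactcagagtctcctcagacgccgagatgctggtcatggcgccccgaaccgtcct

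Libraries held between 1458825 and 1938665 reads assigned to genes, so 1 read was worth between 0.516 and 0.685 CPM (counts scaled to the assigned reads of the library). A library with no read for a gene allows a level of up to 3 reads, 1.55 to 2.06 CPM. EHMT2, the target, measured 57.6, 68.1, 87.3 and 88.3 CPM in control replicates 1 to 4 and 19.6, 35.1, 33.1 and 58.5 CPM in siG9a replicates 1 to 4. It was lower in siG9a in 4 of 4 pairs of libraries with the same replicate number, although siG9a replicate 4 lay above control replicate 1, and the log2 difference of −1.10 gave a limma adjusted p of 0.191, or 0.000472 once the replicate number was a block. EHMT1, which encodes the partner of G9a, averaged 35.8 ± 5.86 and 30.5 ± 2.69 CPM (SD, n = 4 each), a log2 difference of −0.21 that was not called. The muscle lineage of the cells was checked with MYOD1, MYOG, DES, CDH15 and CHRNA1. Their summed level was 1464 to 1628 CPM in control replicates 1, 2 and 4 but 239 CPM in control replicate 3, and 809 to 1209 CPM in the corresponding siG9a libraries but 203 CPM in siG9a replicate 3. Both replicate 3 libraries thus stood apart in this sum, although MYOG in control replicate 3 (3.69 CPM) was close to control replicate 4 (4.15 CPM). The members' log2 differences are also given without replicate 3. DES (log2 difference −1.77), CDH15 (−1.20) and CHRNA1 (−1.15) were lower in siG9a in 4 of 4 pairs. They were called with the block (limma adjusted p 6.69e-06, 5.50e-05 and 7.52e-05) but not without it (0.300, 0.508 and 0.359). MYOD1 (−0.026) and MYOG (−0.65) were not called in either fit. In bulk RNA, fewer cells that express a gene and less RNA per cell cannot be told apart.

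Class I antigen presentation genes differed widely in level within the control cells. B2M, the invariant light chain, was by far the most abundant at 402 ± 42.4 CPM (SD, n = 4), followed by the loading factor TAPBP at 38.3 ± 7.31 CPM, HLA-C at 26.5 ± 30.4 CPM and HLA-B at 9.85 ± 4.41 CPM. The transporter subunit TAP1 (1.51 ± 2.69 CPM), the trimming enzymes ERAP1 (1.10 ± 1.18 CPM) and ERAP2 (0.44 ± 0.58 CPM) and the immunoproteasome subunits PSMB8 (0.59 ± 0.50 CPM) and PSMB9 (0.48 ± 0.32 CPM) were near or under 3 reads in most control libraries. QuantSeq reads come from transcript ends, so these levels need no scaling by length. The control range of B2M lay above that of TAPBP, whereas the ranges of every other pair of neighbours in this order overlapped.

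In siG9a, 7 of the 9 members had a higher mean log2 level than in control and 2, B2M and PSMB8, a lower one. PSMB8 and PSMB9 are in this count with at most 3 reads in any library. The share of all genes with a higher mean log2 level was not counted. The median difference over the 9 members was 0.77 on the log2(CPM + 1) scale, against 0.015 over the 15092 genes tested. It was also 0.77 over the 7 members tested, which leave out PSMB8 and PSMB9. Tested genes had a mean of at least 1 CPM over the 8 libraries. ERAP2, with a mean of 0.44 CPM in control and 6.27 CPM in siG9a, passed only through its siG9a values. By replicate number the members' median difference was 0.60, 0.93, 0.41 and 0.69 for numbers 1 to 4. Without replicate 3 the median was 0.84. Each of 5 members (HLA-B, TAP1, TAPBP, ERAP1 and ERAP2) was higher in siG9a in 4 of 4 pairs, as were 14.9% of all genes tested. The siG9a values of 2 members, TAPBP and ERAP2, lay entirely above the control values, as did those of 3.88% of all genes tested. Without replicate 3 this held for 4 members (HLA-B and TAP1 in addition) and for 10.5% of all genes tested.

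**Figure D1:**
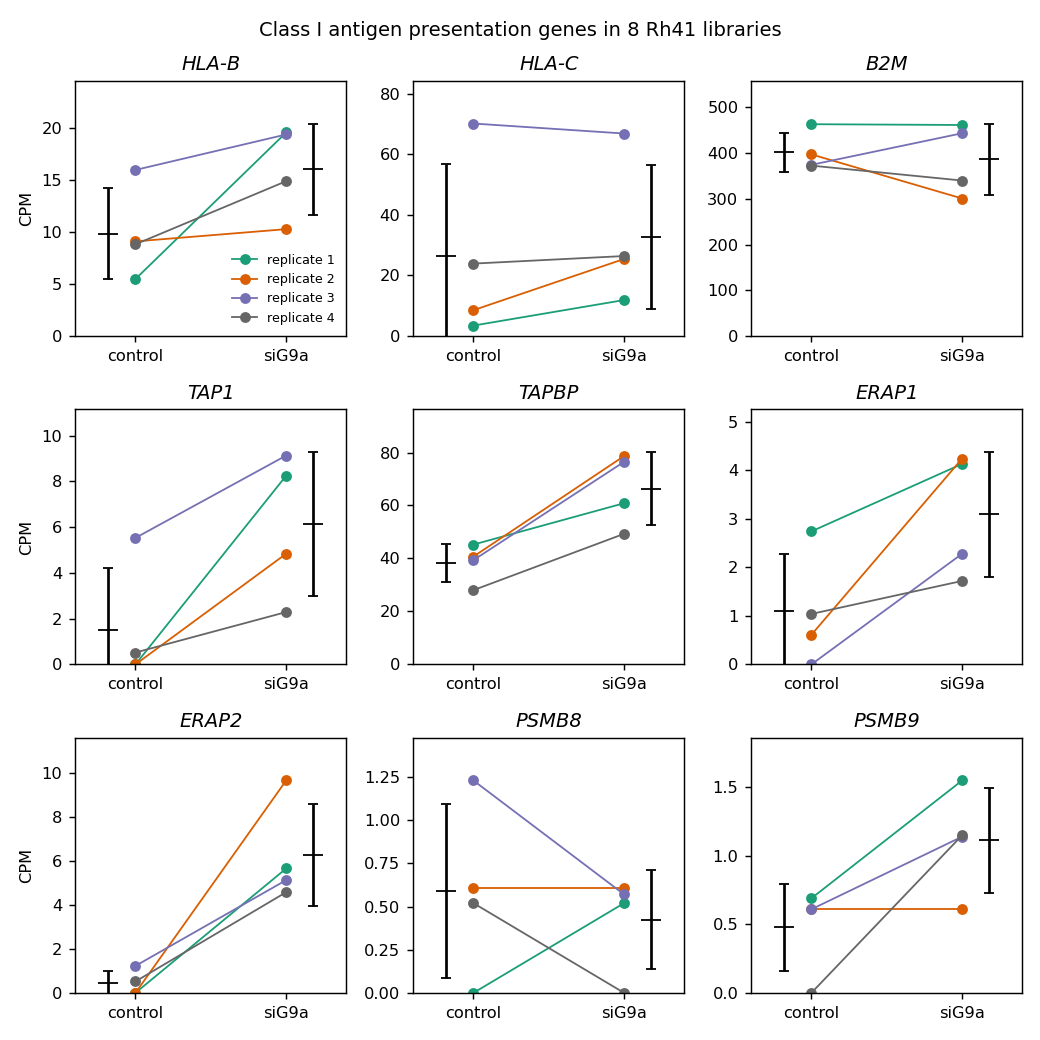
CPM of each of the 9 members in control and siG9a libraries, with lines that join libraries of the same replicate number and black bars for the group mean ± SD (n = 4, drawn down to 0 where they would pass it); each panel has its own CPM axis that starts at 0. TAPBP and ERAP2 do not overlap between the groups, HLA-C is highest in replicate 3 of both, and the B2M ranges overlap.

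ERAP2, the aminopeptidase that trims peptides alongside ERAP1, had the largest log2 difference of the members. Its values were 0, 0, 1.23 and 0.52 CPM in control replicates 1 to 4 and 5.67, 9.68, 5.14 and 4.59 CPM in siG9a replicates 1 to 4. Every siG9a library was above every control library. The 95% Wilson intervals of control replicate 3 (0.34 to 4.48 CPM) and siG9a replicate 4 (2.32 to 9.05 CPM) overlapped. In reads, 3 were found in the 4 control libraries together and 44 in the 4 siG9a libraries, a ratio per assigned read of 13.8 with an exact 95% interval of 4.42 to 69.4 that covers counting error only. The interval pools reads over libraries, and the rise of ERAP2 was known when the list was chosen, so it is no test of the difference. On the log2(CPM + 1) scale the difference was 2.37 ± 0.43 (SE), and 2.68 without replicate 3.

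ERAP1, which trims peptide precursors from the amino-terminal end, was measured at 2.74, 0.61, 0 and 1.04 CPM in control and at 4.13, 4.24, 2.28 and 1.72 CPM in siG9a. No library held more than 8 reads, and the groups overlapped. The log2 difference was 1.07 ± 0.48 (SE), 0.86 without replicate 3. ERAP1 and ERAP2 are neighbours on chromosome 5, and the next gene there, LNPEP, encodes a related aminopeptidase that trims peptides in endosomes. LNPEP had a mean of 39.7 CPM in control and 34.5 CPM in siG9a, a log2 difference of −0.19 ± 0.27 (SE) that did not pass the test (adjusted p = 0.839 by limma without a block and 0.633 with it).

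TAP1, a subunit of the peptide transporter, was at 0, 0, 5.53 and 0.52 CPM in control and at 8.25, 4.84, 9.13 and 2.29 CPM in siG9a. Control replicate 3 with 9 reads was the only control library with more than 1 read, and it exceeded siG9a replicates 2 and 4. Over the groups, 10 reads stood against 44, a ratio per assigned read of 4.13 (exact 95% interval 2.05 to 9.21, counting error only). Like that of ERAP2, this interval pools reads over libraries and is no test of the difference. The log2 difference was 1.88 ± 0.63 (SE) with all libraries and 2.29 without replicate 3, where 1 read remained in the 3 control libraries.

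TAPBP, the tapasin gene, had more reads than every other member except B2M. It measured 45.2, 40.7, 39.4 and 28.0 CPM in control and 60.9, 78.7, 76.5 and 49.3 CPM in siG9a. The lowest siG9a library was above the highest control library. The means were 38.3 ± 7.31 and 66.3 ± 13.8 CPM (SD, n = 4 each), a ratio of 1.73, and the log2 difference of 0.77 ± 0.24 (SE) changed little without replicate 3 (0.72). The siG9a value was 135%, 193%, 194% and 176% of the control value for numbers 1 to 4.

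Of the heavy chains, HLA-B measured 5.48, 9.11, 15.99 and 8.83 CPM in control and 19.6, 10.3, 19.4 and 14.9 CPM in siG9a. Control replicate 3 was the highest control library and reached into the siG9a range. The means were 9.85 ± 4.41 and 16.1 ± 4.41 CPM (SD, n = 4 each), with a log2 difference of 0.70 ± 0.36 (SE) and of 0.84 without replicate 3. The difference was uneven between numbers, from 0.16 for number 2 to 1.67 for number 1.

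HLA-C measured 3.43, 8.51, 70.1 and 23.9 CPM in control and 11.9, 25.4, 66.8 and 26.4 CPM in siG9a. Both replicate 3 libraries stood far above the rest, and replicate 1 was lowest in both groups. The 2 extremes did not touch within counting error, with 95% Wilson intervals of 1.46 to 8.02 CPM for control replicate 1 and 58.4 to 84.2 CPM for control replicate 3. The log2 difference between the groups was 0.77 ± 0.73 (SE), made up of 1.54 and 1.47 for numbers 1 and 2 and of −0.069 and 0.14 for numbers 3 and 4. Without both replicate 3 libraries it was 1.05, and with 1 library left out it ran from 0.14 (without control replicate 1) to 1.47 (without control replicate 3).

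B2M measured 463, 397, 374 and 373 CPM in control and 462, 301, 444 and 340 CPM in siG9a. The ranges overlapped. The means were 402 ± 42.4 and 387 ± 78.3 CPM (SD, n = 4 each), and the log2 difference was −0.074 ± 0.20 (SE), or −0.18 without replicate 3.

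PSMB8 and PSMB9 had at most 2 and 3 reads in any library, which is at or under the limit that a count of 0 allows, and no fold change is given in the text. PSMB8 was at 0, 0.61, 1.23 and 0.52 CPM in control and at 0.52, 0.61, 0.57 and 0 CPM in siG9a. PSMB9 was at 0.69, 0.61, 0.61 and 0 CPM in control and at 1.55, 0.61, 1.14 and 1.15 CPM in siG9a. A difference in these immunoproteasome subunits was not detectable at this depth. Together with PSMB10, the remaining subunit of this kind, they summed to 1.56 to 3.68 CPM in control and 2.30 to 4.65 CPM in siG9a, whereas PSMB5, PSMB6 and PSMB7, the constitutive subunits they replace, summed to 1253 to 1397 CPM and 1036 to 1434 CPM.

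**Figure D2:**
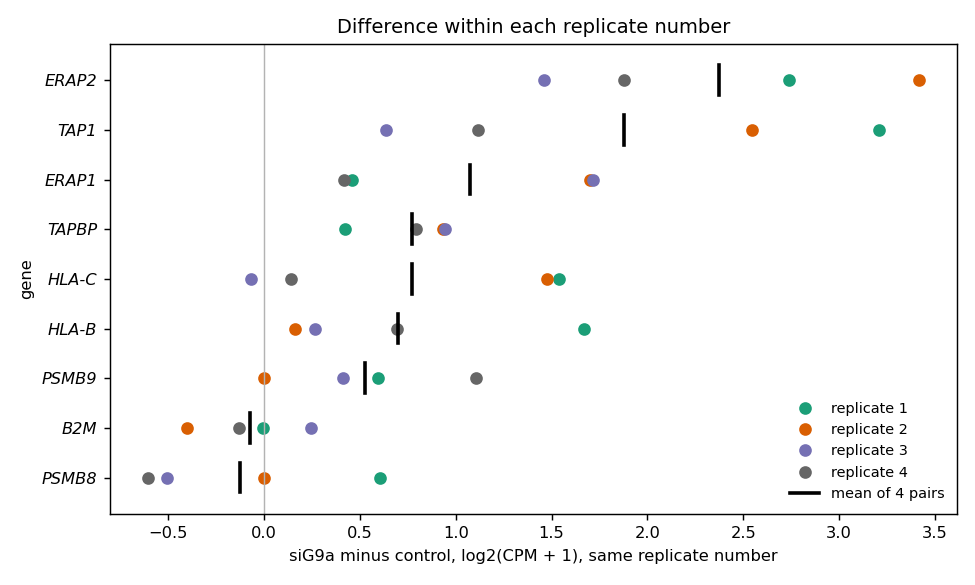
Difference between the siG9a and the control library of the same replicate number for each member, on the log2(CPM + 1) scale; dots are the 4 replicate numbers and black bars their mean. ERAP2 and TAP1 are higher in all 4 pairs, TAPBP is higher by 0.42 to 0.94, and B2M, PSMB8 and HLA-C have dots on both sides of 0. The dots of PSMB8 and PSMB9 rest on at most 3 reads per library.

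Across the whole table, limma without a block gave 0 calls among 15092 genes (0%) at a threshold of 0.05 on the adjusted p, against 1880 genes below 0.05 before adjustment. By other tools edgeR called 0 and DESeq2 291. Of the 9 members 7 had a mean of at least 1 CPM and were tested, and PSMB8 and PSMB9 were not. Calls among the 7 are left out, since the list was drawn up with this contrast known. Adding the replicate number as a block brought the calls over the whole table to 1717 (11.4%), 733 of them higher in siG9a (4.86%) and 984 lower (6.52%).

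The difference between replicate numbers was not part of how the members were chosen, and its test was added after the data were seen. An F test of the replicate-number terms in the fit with the block called 21.8% of all genes tested and 1 of the 7 members tested, HLA-C (adjusted p = 1.03e-05 by limma). TAP2, the partner of TAP1 in the transporter, gave an adjusted p of 3.01e-07 in the same limma test, which called 6 of the 31 other pathway genes tested. TAP2 measured 3.43, 18.2, 66.4 and 23.9 CPM in control and 10.3, 27.8, 88.5 and 42.4 CPM in siG9a, the same order of libraries within control as HLA-C. On the log2(CPM + 1) scale, replicate 3 exceeded the mean of the other numbers by 2.81 in control and 1.69 in siG9a for HLA-C, and by 2.39 and 1.89 for TAP2. For TAP1 the excess was 2.51 and 0.85, and for HLA-B 0.98 and 0.40. ERAP1 went the other way (−1.21 and −0.35), and ERAP2 differed by 0.96 in control and −0.26 in siG9a. HLA-E (−0.23 and −0.32), TAPBP (0.077 and 0.30) and B2M (−0.13 and 0.29) had smaller differences of this kind. Of the other pathway genes called, MR1 (1.70 and 1.06), THOP1 (0.97 and 0.95) and RFXAP (1.07 and 0.092) were higher in replicate 3. PSME1 (−0.80 and −0.62) and NFKB1 (−0.93 and −0.72) were lower there. MICA (1.36 and 2.07) was higher too, but the F test did not call it (limma adjusted p 0.0869).

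**Figure D3:**
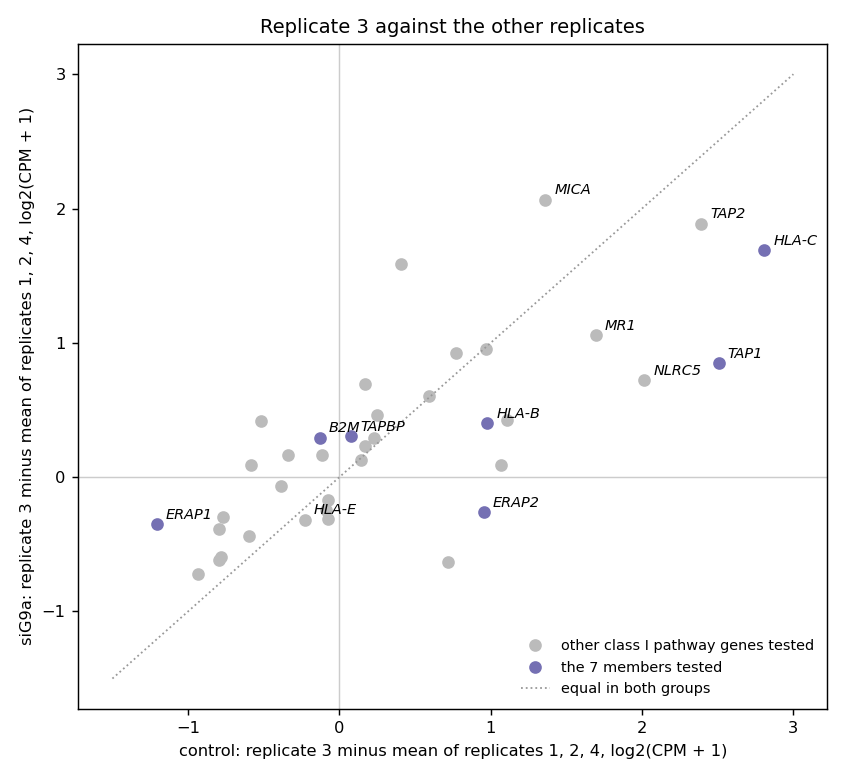
Level in replicate 3 minus the mean of replicates 1, 2 and 4, on the log2(CPM + 1) scale, in control (horizontal axis) and in siG9a (vertical axis), for the 7 members tested (violet) and the other pathway genes tested (grey). HLA-C and TAP2 lie far out in both groups, as do MICA and MR1, TAP1 mainly in control, and TAPBP and B2M near 0. Other grey dots lie below 0 in both groups, PSME1 and NFKB1 among them.

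HLA-B, HLA-C, TAP1, TAPBP, PSMB8 and PSMB9 are encoded on chromosome 6, where the median excess of replicate 3 over 759 tested genes was 0.36 in control and 0.29 in siG9a, against 0.016 and 0.0047 over all 14736 tested genes with a known chromosome. The part of this shift in the values of the members was not tested. Reads of near-identical HLA genes may have been split between them, and Rh41 alleles may differ from the annotated ones, so the HLA-B and HLA-C levels are uncertain in that respect. In GENCODE 29 the HLA-B model also overlaps HLA-C, and PSMB9 overlaps both TAP1 and PSMB8. ERAP1 and ERAP2 overlap genes of the opposite strand, while B2M and TAPBP overlap none. Of the other pathway genes described below, TAP2, PSME1, PSME2, PSMB5, NPEPPS, BLMH, IRF1, NLRC5, CREB1, CALR, CANX and MICA overlap other genes too. The strand setting of the counting is not given in the sources used here.

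The rest of the pathway was read from a list of 35 other genes, of which 31 were tested. The list was chosen with earlier results of these data known. Its calls beside the share of all genes are therefore a description and not a test of the list. Without a block, limma called 0 of the 31, and 3 had an unadjusted p under 0.05, as did 1880 of the 15092 genes tested. With the block, 5 were called, all higher in siG9a, against 4.86% of all genes tested that were called higher and 6.52% lower, 26 were not, and the median log2 difference of the 35 was 0.15. The 5 were the regulators IRF1 and NLRC5, the transporter subunit TAP2, the proteasome activator subunit PSME2 and the cytosolic aminopeptidase NPEPPS. When both libraries of a number were left out, IRF1 was called in 4 of 4 fits, PSME2 and NPEPPS in 1, the fit without number 4, and TAP2 and NLRC5 in 0. The fit without number 4 also called PSME1 higher (log2 difference 0.91, limma adjusted p 0.00366) and CANX (−0.59, 0.00942) and BLMH (−0.69, 0.00482) lower. Without number 3, IRF1 was the only call among the 31.

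Among the 12 regulators, 2 rose with the block and 10 were not called. IRF1, an interferon-induced transcription factor that binds the ISRE, measured 20.6, 12.2, 11.1 and 17.1 CPM in control and 37.7, 42.4, 46.8 and 26.4 CPM in siG9a. All its siG9a values lay above all control values, with a log2 difference of 1.29 (limma adjusted p = 0.00139 in the blocked fit, 0.120 unblocked). NLRC5, the class I transactivator, was at 0.69, 0.61, 6.15 and 1.04 CPM in control and at 4.64, 5.45, 7.99 and 3.44 CPM in siG9a, and it was called narrowly (log2 difference 1.30, limma adjusted p 0.0476 with the block and 0.339 without it), but not by edgeR with the block (adjusted p 0.1097). Its control replicate 3 was above the siG9a values of 3 libraries, as that of TAP1 was above 2. RELA, NFKB1, RFX5, RFXAP, RFXANK, CREB1, IRF2 and the NFY subunits were not called, with log2 differences from −0.36 (CREB1, limma adjusted p 0.240 with the block) to 0.75 (IRF2, named for being the highest).

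In the loading complex, 1 of the 4 genes tested was called with the block. TAP2 rose by a log2 difference of 0.79 and was higher in 4 of 4 pairs (limma adjusted p 0.0277 with the block and 0.721 without it). That difference was 0.076 without control replicate 1, 0.32 without siG9a replicate 3, 1.31 without siG9a replicate 1 and 1.39 without control replicate 3. The chaperones calreticulin (CALR, 0.25) and calnexin (CANX, −0.40) had log2 differences of opposite sign, and neither passed (limma, blocked fit, adjusted p = 0.284 for CALR and 0.0848 for CANX). PSME2, a subunit of the interferon-induced proteasome activator, was the one call among the 7 proteasome genes. It rose from 39.5 ± 12.0 to 61.04 ± 17.6 CPM (SD, n = 4; limma adjusted p 0.0454 with the block and 0.388 without it), and its partner PSME1 went from 71.8 ± 20.8 to 117.6 ± 70.8 CPM without passing (limma adjusted p 0.0557 with the block). PSMB5, a constitutive subunit, had siG9a values all below the control values, at means of 407 and 505 CPM, and was not called (limma adjusted p 0.154 with the block).

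Among the peptidases, NPEPPS was called, from 120.2 ± 33.6 to 164.6 ± 25.0 CPM (SD, n = 4; limma adjusted p 0.0405 with the block and 0.428 without it), and BLMH (−0.44), THOP1 (0.25) and LNPEP were not. Of the heavy chains and their relatives, 0 of the 4 tested were called. HLA-E, which presents leader peptides of other heavy chains to natural killer cells, had a log2 difference of 0.39 (limma adjusted p 0.131 with the block), and MICA, a ligand of the NKG2D receptor, one of 0.54 (limma adjusted p 0.497 with the block). MR1, which presents vitamin metabolites of microbes, had a log2 difference of −0.18 (limma adjusted p 0.827 with the block), and it was among the genes called for replicate number (limma adjusted p 0.0217). HLA-F, HLA-G and HFE, and TAPBPL of the loading complex, were under the filter. MICA, with means of 0.90 CPM in control and 2.14 CPM in siG9a, passed it only through its siG9a values.

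**Figure D4:**
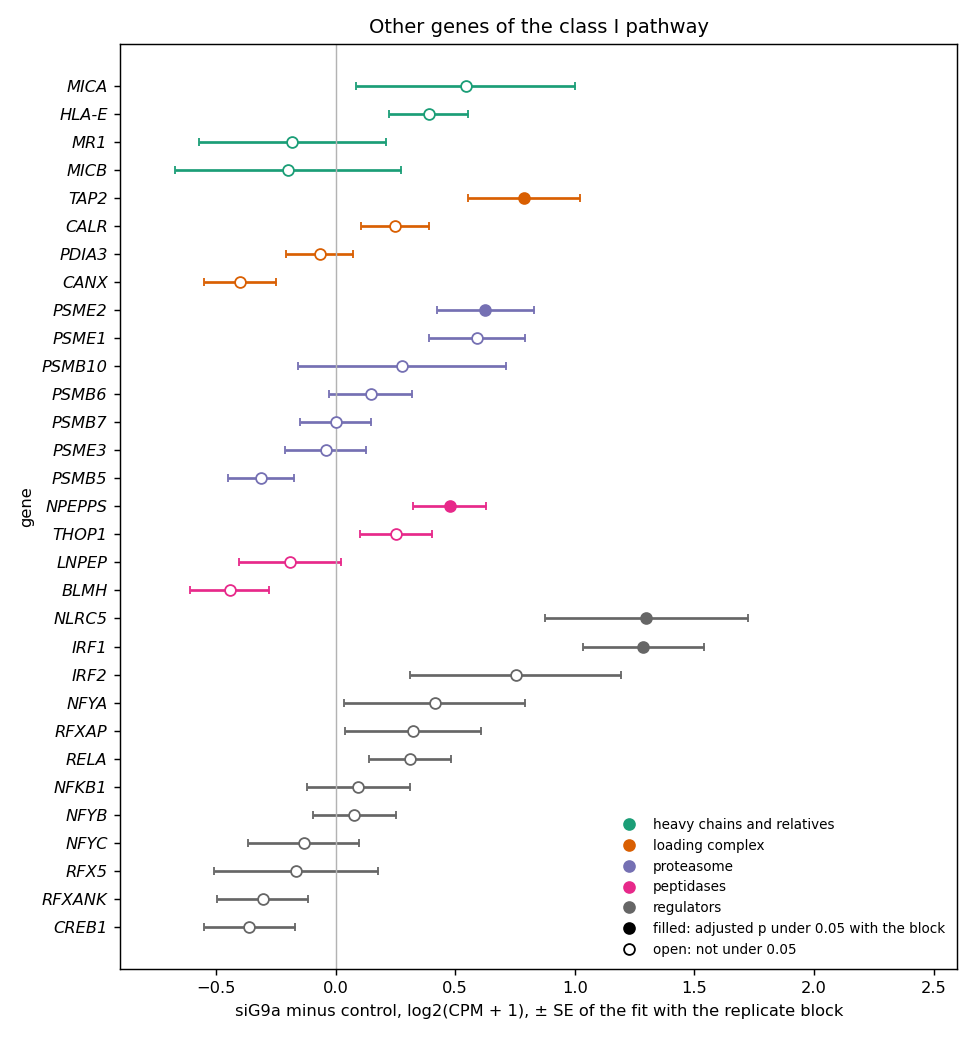
Log2 difference, siG9a minus control, of the 31 other pathway genes tested, with the SE of the limma fit with the replicate block; filled dots have an adjusted p under 0.05 in that fit, and no gene does without the block. The 5 filled dots all lie to the right of 0, from NPEPPS at 0.48 to NLRC5 at 1.30.

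Markers of other cell types that carry class I molecules were read beside these values. The 6 leukocyte markers read here (PTPRC, CD3E, CD14, LYZ, CD68 and TYROBP) summed to 1.83 to 5.52 CPM in control, with replicate 3 highest, and to 1.22 to 10.9 CPM in siG9a. PTPRC was at 0 in control replicates 2 to 4 and in siG9a replicates 1 and 2, and CD3E had 1 read in all libraries together. LYZ had 4 reads in control and 14 in siG9a, and TYROBP 7 and 19, most of the siG9a reads of both in replicates 3 and 4, and neither was called (limma adjusted p 0.325 and 0.414 with the block). Of the 3 genes of MHC class II, CD74 (2.23 ± 1.65 to 8.37 ± 4.23 CPM) and HLA-DRA (0.93 ± 0.83 to 5.06 ± 2.68 CPM, SD, n = 4) rose with the block (limma adjusted p 0.0196 and 0.0140 with the block, 0.227 and 0.219 without it), and CIITA, the class II transactivator, was under the filter at means of 0.59 and 0.43 CPM. HLA-DRA and LYZ, with control means under 1 CPM, passed the filter only through their siG9a values. Of the 3 endothelial markers, CDH5 was at 0 in all libraries and VWF, under the filter, at 1.22 to 2.08 CPM in control and 0 to 0.57 CPM in siG9a, and PECAM1 was not analysed here. The 4 fibroblast markers (COL1A1, COL1A2, DCN and LUM) summed to 50.4 to 64.4 CPM in control and 13.1 to 59.7 CPM in siG9a. COL1A1 among them fell with the block, from 51.9 ± 4.93 to 33.3 ± 20.3 CPM (SD, n = 4; limma adjusted p 0.0410 with the block and 0.414 without it), its siG9a values being 49.0, 19.97, 11.99 and 52.2 CPM for replicates 1 to 4. The part of such cells in the members' values was not tested.

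The tested members were summarised over the 8 libraries by the mean of their standardised log2 levels, which not all of them followed. It ran from −0.76 to −0.061 in control, with replicate 3 highest, and from 0.061 to 0.94 in siG9a, with replicate 4 lowest and replicate 3 highest. TAP1 (Pearson r = 0.94), ERAP2 (0.88), TAPBP (0.82) and HLA-B (0.82) had the highest coefficients with this mean, of which they are a part, followed by HLA-C (0.52), ERAP1 (0.50) and B2M (0.076). ERAP2 entered the mean only because its siG9a values carried it past the filter. The genes outside the pathway most like this mean were KIAA0100 (r = 0.98, 77.3 ± 10.1 to 106.3 ± 9.87 CPM), STX4 (0.98, 59.04 ± 3.87 to 74.02 ± 6.18 CPM), PDS5A (0.98, 86.04 ± 9.40 to 112.7 ± 12.0 CPM), HCCS (0.97, 20.5 ± 4.03 to 33.95 ± 4.79 CPM) and OTUD4 (0.97, 23.6 ± 5.33 to 50.97 ± 13.6 CPM, SD, n = 4 each). These coefficients are a description over 8 libraries that share a cell line and 2 groups. The mean carries the group difference that was known when the list was chosen, so genes that follow it also differ between the groups.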

How the data were processed

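Total RNA of Rh41 cells was made into QuantSeq 3′ mRNA libraries and sequenced single-end on a NextSeq500, per the labels' protocols. The submitters' processing notes name FastQC 0.11.8, Trim Galore, STAR 2.5.0a, HTSeq 0.8.0, edgeR 3.28 and the builds GRCh38 and hg19, without roles. The authors deposited CPM to 2 decimals for 60234 genes. Whole reads were recovered from them (100% of non-zero values within 0.0051 CPM of a whole number of reads), 1458825 to 1938665 per library. Groups and replicate numbers come from the sample titles.

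The main test was limma 3.58.1 (R 4.3.3) on log2(CPM + 1), with eBayes and trend, for 15092 genes averaging 1 CPM or more over the libraries, two-sided, with Benjamini-Hochberg adjustment over all of them and a threshold of 0.05. A log2 difference is on that scale and understates the change of low genes. SE values are those of the fit without a block unless stated. The blocked fit added the replicate number as a term. Deviations of same-numbered libraries from their group means correlated across genes at 0.50, 0.10, 0.67 and 0.13 (0.104 at the second number before rounding). The numbers were taken as pairs, although the correlations were low for numbers 2 and 4. Every call with the block rests on this choice. The labels do not explain the numbers, and control replicate 2 correlated best with siG9a replicate 4, not 2. On simulated reads that were paired by construction (200 of 15097 genes changed by 1.5 in log2), the fit without a block recovered 1.00% and the fit with it 67.0% of the changed genes. DESeq2 without a block recovered 33.5%. Both simulated libraries of a number shared the same mean for unchanged genes, so these rates need not hold for the real libraries.

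The members, the pathway and marker lists and the rule for named genes were chosen with earlier results of these data known. Of the lists fixed for this comparison, 2 pathway genes and 1 marker are not reported here, and all list counts are without them. Named were the members, EHMT2, EHMT1, pathway genes called in either fit or with the 3 smallest p-values of their sub-list, and the 5 genes outside the lists most correlated with the members' mean. LNPEP, IRF2 and the marker genes were named outside that rule, after their values were seen. The F test of replicate numbers and the unblocked fit without both replicate 3 libraries were added after the data were seen. Alternatives were pseudocounts of 0.1 and 5, other filters and scalings, summed identifiers, edgeR 4.0.16 and DESeq2 1.42.0 on the recovered reads, and left-out libraries. GENCODE 29 gave chromosomes and gene overlaps, and RefSeq the promoters. Wilson and exact intervals are at 95% and, like the limit of 3 reads, cover counting error only.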

Additional observations from a re-analysis of the deposited data

Results flagged for a closer look

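For the members, the named pathway genes and EHMT2, extreme libraries of control and of siG9a were looked for by Dixon's 95% criterion. In 7 of 50 sets of 4 libraries the extreme one lay beyond it, where chance gives about 1 in 20. Control replicate 3 stood out for TAP1 at 5.53 CPM (others 0 to 0.52) and for NLRC5 at 6.15 CPM (others 0.61 to 1.04). MICA was at 6.28 CPM in siG9a replicate 3 (others 0.52 to 1.15). PSMB8 was at 0 CPM in siG9a replicate 4 (others 0.52 to 0.61) and PSMB9 at 0 CPM in control replicate 4 (others 0.61 to 0.69), differences of 1 read from the nearest library. CANX was at 428 CPM in siG9a replicate 4 (others 210.02 to 233), and BLMH at 286 CPM in control replicate 2 (others 228 to 232).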

How the results depend on the processing

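The replicate block moved the counts most. It took the genes called over the whole table from 0 to 1717 and the other pathway genes called from 0 to 5, and edgeR with the block gave 1711 and 5, with PSME1 called (adjusted p 0.0438) and NLRC5 not (0.1097). DESeq2 without the block called 291 genes, 1 of them (IRF1) in the pathway list. With no filter, 18 genes were called and none of the pathway. Leaving out 1 library or, with the block, both libraries of a number gave 0 to 1393 genes called and 0 to 6 pathway genes called. Without a block, 300 genes were called without control replicate 3, 2 without siG9a replicate 4 and 0 without any other single library. Without both replicate 3 libraries and without a block, 413 genes were called, 0 of them in the pathway list. With the block and 1 number left out, 951, 668, 1078 and 1393 genes were called for numbers 1 to 4, and 1, 1, 1 and 6 pathway genes. The remaining settings (pseudocounts, the filter at 5 CPM, both scalings, edgeR without the block, summed identifiers) called 0 of either.

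The median log2 difference of the members was 0.52 with a pseudocount of 5 and 0.51 to 0.84 when libraries were left out (0.51 with the block and without replicate 1), against 0.77 with all libraries. It was not recomputed under other filters, which do not change single differences. The differences of HLA-B, HLA-C, TAP1, TAPBP, ERAP1 and ERAP2 stayed above 0 in every setting run. These settings reuse the libraries by whose values the list was chosen, so the steady sign is no independent support. The limma block leaves each difference unchanged. ERAP2 ranged from 1.04 (pseudocount of 5) to 4.34 (pseudocount of 0.1), TAP1 from 0.80 to 3.67, ERAP1 from 0.41 to 2.11, HLA-B from 0.37 to 0.94, HLA-C from 0.14 to 1.47 (0.30 by edgeR), TAPBP from 0.63 to 0.90, and B2M from −0.18 to 0.039. MR1 changed sign without control replicate 3 (0.24) and without siG9a replicate 1 (0.24), in a range from −0.59 (without control replicate 1) to 0.24 with libraries left out. The cause was not tested. PSMB8 and PSMB9 were under the filter of 1 CPM, and with at most 3 reads per library the depth limits what can be said of them.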
